A study of Mus musculus with 2 samples.

Results

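The nuclei described here were Cd3-positive T nuclei of the mouse gut in which Il10 RNA was counted and Foxp3 RNA was not. They were chosen on unique molecular identifiers (UMIs, each standing for 1 captured RNA molecule). A nucleus entered with 500 to 4000 UMIs over all genes, at least 1 UMI of Cd3d, Cd3e and Cd3g together, no Foxp3 UMI, at least 1 Il10 UMI and fewer than 2 UMIs of the type 2 genes Il5, Il13, Il17rb, Pparg and Hs3st1 together. The rule was met by 270 of the 2912 Cd3-positive nuclei of that depth, out of 6614 barcodes in the series. These Il10-positive Foxp3-zero nuclei, called members below, numbered 197 of 2030 in the control and 73 of 882 in the knockout library.

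Mice of the genotype Zfp362flox/flox, aged 26 to 33 weeks, gave the control library. The knockout library was made from CD4creZfp362flox/flox mice of that age. Both genotypes thus carried the floxed Zfp362 allele, and only the knockout carried a Cre driven by Cd4 regulatory sequence, which deletes in T cells from their development in the thymus onwards. Effector T cells of pooled colon and small intestine were sorted for CD4 and CD44 and against CD62L, CD8a, CD11c, CD45R and F4/80. Nuclei were then profiled for RNA and open chromatin together, with 1 library per genotype, and the series text names 7 mice without dividing them between the genotypes. The study asked whether Zfp362, a zinc finger gene, affects inflammatory T cell responses apart from Th17 differentiation. Zfp362 RNA was too sparse to check the labels, with 97 UMIs in 4223 control barcodes and 59 UMIs in 2391 knockout barcodes. The members held 3 Zfp362 UMIs in the control library (6.68 UMIs per 1000000, or CPM) and 0 in the knockout library, where a count of 0 allows up to 15.9 CPM.

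Interleukin 10 is a cytokine that restrains myeloid cells and T cells, and the gut is the organ in which its loss is best known to cause inflammation. In gut CD4 T cells it is made by Foxp3-expressing regulatory T (Treg) cells and by Foxp3-negative cells, among them type 1 regulatory (Tr1) cells, which are known for LAG-3, TIM-3 and other co-inhibitory receptors and for the transcription factors c-MAF and BLIMP1. Th1 and Th17 effector cells can also make it. A count of 0 does not show that a nucleus lacked Foxp3 RNA. Among the Foxp3-positive nuclei of the same depth, 169 of 242 control nuclei (69.8%) and 66 of 96 knockout nuclei (68.8%) held exactly 1 Foxp3 UMI.

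Levels below are UMIs per 1000000 UMIs (CPM) of the summed nuclei of a class, and paired values give the control library first and the knockout library second. The members' RNA was summed per library and set against the other 2642 Cd3-positive nuclei of the same depth and, separately, against the 338 Foxp3-positive nuclei among those. Both comparisons used edgeR's quasi-likelihood test with the library as a block and Benjamini-Hochberg adjusted p-values over all genes tested. The 2 libraries served as the samples of each class although they differ in genotype, so p-values speak for these libraries only. The spread was pooled over genes, so a p-value rests on the ratio and the number of UMIs. It says little about how alike a single gene's difference was in the 2 libraries. Intervals given per library are 95% counting intervals and cover counting error only. The rule's own genes were described and not tested.

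The members' sums held 449231 and 189178 UMIs, with a median of 2097 and 2537 per nucleus against 1965 and 2113 in the other Cd3-positive nuclei. T cell markers outside the rule (Cd4, Trac, Trbc1, Trbc2, Cd5, Cd6 and Lck) summed to 2716 and 3425 CPM in the members and to 3119 and 3444 CPM in the other nuclei. Cd8a and Cd8b1 were at 0 in the members, as were Cd79a, Pax5, Lyz2, Itgam and Itgax. Other markers of those lineages were counted. The list of 5 CD8 and gamma-delta T markers summed to 22.3 and 31.7 CPM against 31.2 and 43.4 CPM, with 3 and 2 genes counted. Innate lymphoid markers summed to 641 and 692 CPM against 769 and 782 CPM, with 5 and 6 of the 8 genes counted and with Ncr1 and Cnr2 at 0. B and plasma cell markers summed to 109 and 174 CPM against 146 and 283 CPM, with 4 of 7 genes counted in the members of each library. Myeloid markers summed to 307 and 153 CPM against 348 and 392.1 CPM, with 4 of 9 genes counted in the members of each. Stromal and endothelial markers summed to 69.0 and 95.1 CPM against 154 and 190.3 CPM, with Pecam1 lower by the test below. The part of these marker levels in the results was not tested. Epithelial markers (7 and 4 of 9 genes counted) summed to 62.3 and 68.7 CPM, against 45.4 and 137 CPM. The 2 libraries shared 11 cell barcodes, 1 of them on a control member.

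Il10 was counted at 1756 and 1834 CPM in the members, from 789 and 347 UMIs, and at 727 and 984 CPM in the Foxp3-positive nuclei. This level follows from the rule. The median member held 3 Il10 UMIs in both libraries, and the highest held 18 and 36. Exactly 1 Il10 UMI was found in 72 of 197 control members (36.5%) and 27 of 73 knockout members (37.0%), which lie just inside the rule. Just outside it, 3 control nuclei and 0 knockout nuclei failed through the type 2 sum alone. Members were 9.70% of the Cd3-positive nuclei in the control library (exact Clopper-Pearson interval 8.45 to 11.1%) and 8.28% in the knockout library (6.54 to 10.3%), so the intervals overlapped. With every nucleus thinned to 1000 UMIs the shares were 8.99% and 7.45%.

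Free RNA can place an Il10 UMI in a nucleus that does not express it. In Cd3-zero nuclei with innate lymphoid markers, 14 of 785 control nuclei (1.78%) and 10 of 446 knockout nuclei (2.24%) held an Il10 UMI, at a median of 2008 and 2079.5 UMIs. The share among Foxp3-zero Cd3-positive nuclei was 11.2% and 9.29%, and among Foxp3-positive nuclei 37.6% and 34.4%. At 1000 UMIs per nucleus these shares were 1.03% and 1.14%, 8.75% and 7.09%, and 29.9% and 31.5%. The members' share thus stood above the level in the innate lymphoid nuclei at equal depth.

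Against the other Cd3-positive nuclei, 195 of 8421 genes tested (2.32%) were higher in the members and 123 (1.46%) were lower, at an edgeR adjusted p under 0.05, which is 318 genes or 3.78% in all. The test pooled the spread over genes, having 1 residual degree of freedom, so genes counted in few nuclei could pass. Of the 195 genes, 17 had UMIs in fewer than 10 member nuclei and 15 had over 20% of them in 1 nucleus. DESeq2, which gave an adjusted p to 3195 genes, called 80 of them (2.5%), 59 higher (1.85%) and 21 lower (0.657%), all among edgeR's calls.

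Receptors that dampen or tune T cell activation were among the genes that were higher. Ctla4, the co-inhibitory receptor that competes for B7 ligands, was at 3083 and 3172 CPM in the members, 1399.5 and 1438 CPM in the other Cd3-positive nuclei and 3009.8 and 3143 CPM in the Foxp3-positive nuclei. The members lay near the Foxp3-positive level in both libraries and above the rest, while the Foxp3-positive nuclei with an Il10 UMI held 4029 and 4572 CPM. The members had a log2 ratio of 1.17 to the other nuclei (edgeR adjusted p = 1.59e-32). The ratio was 1.14 (1.05 to 1.22) in the control library and 1.14 (1.01 to 1.27) in the knockout library. Thinned to 1000 UMIs, 81.8% and 81.9% of members held a Ctla4 UMI, against 48.5% and 51.5% of the nuclei with neither Foxp3 nor Il10 and 84.2% and 80.4% of the Foxp3-positive nuclei. Unthinned, these shares were 89.8% and 90.4%, 60.1% and 64.4%, and 92.1% and 93.8%.

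Havcr2, which encodes the co-inhibitory receptor TIM-3, had the largest ratio of the 10 higher genes chosen by the naming rule. It was counted at 158 and 148 CPM in the members, 32.3 and 22.0 CPM in the other nuclei and 109 and 108 CPM in the Foxp3-positive nuclei. The log2 ratio to the other nuclei was 2.48 (edgeR adjusted p = 2.64e-16), and the per-library ratio was 2.30 (1.85 to 2.72) in the control library and 2.76 (2.00 to 3.48) in the knockout library. The 71 and 28 Havcr2 UMIs came from 33 and 8 nuclei, so the gene was counted in a minority of the members. Havcr2 and Ctla4 were, with Ccl20 and Matn2, proposed as markers of these nuclei from earlier results on the same data, so their elevation is a description.

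The bases from 250 to 1 before the RefSeq start of both receptor genes are shown because each overlaps an open region tested below (GRCm38.p6, forward strand, lower case, matches to the searched motifs in capitals).
Havcr2 promoter, chr11:46454681-46454930: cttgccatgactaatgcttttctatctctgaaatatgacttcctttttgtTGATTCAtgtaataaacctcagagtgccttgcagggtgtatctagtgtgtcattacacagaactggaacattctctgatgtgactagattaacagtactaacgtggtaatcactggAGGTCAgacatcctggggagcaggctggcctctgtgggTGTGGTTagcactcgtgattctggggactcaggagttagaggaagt
Ctla4 promoter, chr1:60908775-60909024: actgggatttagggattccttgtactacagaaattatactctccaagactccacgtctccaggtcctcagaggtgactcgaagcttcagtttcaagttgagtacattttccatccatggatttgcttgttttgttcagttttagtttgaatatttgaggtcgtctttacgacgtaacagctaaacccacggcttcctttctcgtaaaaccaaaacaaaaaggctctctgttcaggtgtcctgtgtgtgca
Each promoter was searched on both strands, and the share of all 32851 mouse promoters of the same length that hold each motif is given with it. The AP-1 motif TGANTCA is found in 6.75% of promoters, and the Havcr2 promoter held it at position -200 from the start, where it reads on both strands. The ROR motif AGGTCA is found in 14.02% and was held at -84, and the RUNX motif TGTGGTT is found in 4.40% and was held at -46. The Ctla4 bases held none of these. Neither promoter held the short MAF site TGCTGA, found in 16.1% of promoters. The same was true of the forkhead motif TGTTTAC, found in 3.17%. The NFAT motif GGAAAANT (4.35%), a BLIMP1 and IRF motif (2.98%) and the motif of GATA factors, which reads AGATAA (9.99%), were also without a match in both.

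Of 17 co-inhibitory and co-stimulatory receptors tested, 8 were higher in the members and 2 were lower. The median log2 ratio of this list was 0.63 against -0.01 over all genes. Over all genes 2.32% were higher and 1.46% lower, which is the background for each list set against the other Cd3-positive nuclei. The 8 receptors include the proposed markers Ctla4 and Havcr2. Icos, the inducible co-stimulator, was at 1340.1 and 1343 CPM against 879 and 900.1 CPM (log2 ratio 0.63). Lag3, which binds MHC class II and dampens T cell activation, was at 46.7 and 84.6 CPM against 21.9 and 17.0 CPM (log2 ratio 1.61), from 21 and 16 UMIs. The TNF receptor family members Tnfrsf4 (OX40), Tnfrsf18 (GITR), Tnfrsf9 (4-1BB) and Cd27 were also higher, with log2 ratios of 1.14, 0.72, 0.72 and 0.94. Cd40lg, through which helper T cells activate B cells and dendritic cells, went the other way at 107 and 190.3 CPM against 349 and 350.3 CPM, a log2 ratio of -1.33 (edgeR adjusted p = 2.22e-10). Cd96 was lower as well (log2 ratio -0.72), a call lost in DESeq2. Pdcd1, which encodes PD-1, did not pass the test, at 102 and 37.0 CPM against 108 and 81.9 CPM.

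**Figure D1:**
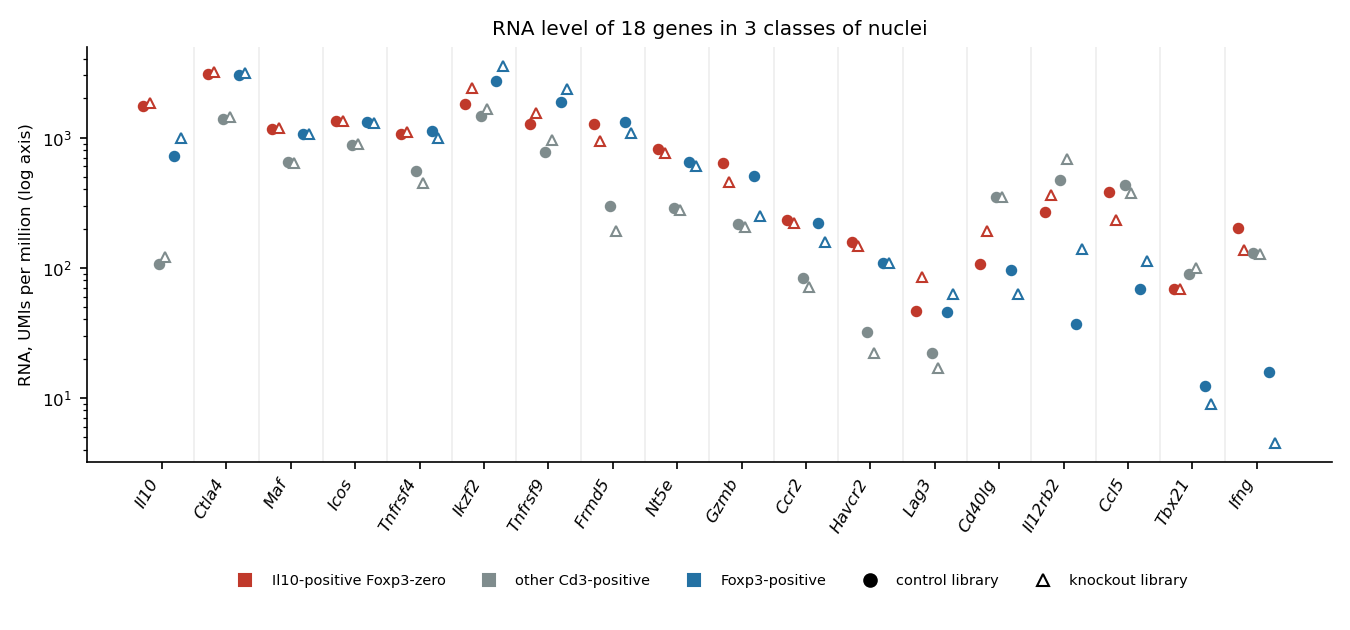
RNA of 18 genes in 3 classes of nuclei, as UMIs per 1000000 UMIs (CPM) on a log axis, with 1 filled circle for the control library and 1 open triangle for the knockout library per class. For Ctla4 the members (red) sit at 3083 and 3172, level with the Foxp3-positive nuclei (blue), and for Ifng they sit at 200.3 and 137, near the other Cd3-positive nuclei (grey) and above the Foxp3-positive nuclei.

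Tr1 cells are defined by Il10 without Foxp3 together with several surface receptors and regulators, and 25 such genes other than Il10 were tested. Of these, 11 were higher in the members and 0 were lower, with a median log2 ratio of 0.66. The 11 include Ctla4 and Havcr2, proposed as markers from the same data, so their part of the count is a description. Beside the receptors above they included Maf, the c-MAF factor that binds and activates Il10, at 1166 and 1179 CPM against 648 and 641 CPM (log2 ratio 0.89, edgeR adjusted p = 3.31e-13). Gzmb, which encodes granzyme B, was at 637 and 455 CPM against 217 and 206 CPM (log2 ratio 1.42), with 44.2% of its knockout UMIs in 1 nucleus. Il21, a cytokine that supports Il10 production, was also called (log2 ratio 2.05), but from only 4 and 3 nuclei. Tgfb1 passed with a log2 ratio of 0.64, and its call was lost in DESeq2.

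Several defining Tr1 genes did not separate the members. Itga2, the CD49b integrin chain, was at 17.8 and 15.9 CPM against 15.0 and 13.7 CPM. Eomes, a T-box factor linked to Tr1 cells, was at 20.0 and 0 CPM against 17.6 and 6.60 CPM. Prdm1, which encodes BLIMP1, was at 129 and 127 CPM against 72.04 and 103 CPM and missed the threshold (edgeR adjusted p = 0.089). Ahr, the aryl hydrocarbon receptor, was at 118 and 63.4 CPM against 123 and 145 CPM.

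Among 23 genes that regulate Il10 or carry its signal, 5 were higher and 1 was lower (median log2 ratio 0.33). Nfil3, a basic leucine zipper factor that controls Il10 in T cells, was at 260.4 and 269.6 CPM against 134 and 112 CPM (log2 ratio 1.11). Maf, Il6st (the shared receptor chain of the IL-6 and IL-27 families), Stat3 and Smad7 were the others, with Il6st at a log2 ratio of 0.88 and Stat3 at 0.40. Smad7 passed narrowly and lost its call under every alternative that gave it a test except the Il10 threshold of 2 and the reference without Foxp3 and Il10. Tgfbr2, the ligand-binding TGF-beta receptor, was lower at 185 and 196 CPM against 343 and 314 CPM (log2 ratio -0.78). The Il10 receptor chain Il10ra was at 42.3 and 79.3 CPM against 33.3 and 51.1 CPM and did not pass.

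The members also carried genes named for Treg identity. Of the 21 tested of 22, 11 were higher than in the other Cd3-positive nuclei and 0 were lower, with a median log2 ratio of 0.70. This list is not separate from those above. Ctla4, Icos, Tnfrsf4, Tnfrsf9 and Tnfrsf18 were also counted among the receptors, and Ctla4, Icos and Tnfrsf9 among the Tr1 genes. Ctla4 is also a proposed marker. Since the reference included the Foxp3-positive nuclei, the difference from nuclei with neither transcript was larger still for Ikzf2, Itgae and Itgb8. Ikzf2 (Helios), a factor of thymus-derived Treg cells, was at 1814 and 2421 CPM in the members, 1455 and 1661 CPM in the other nuclei and 1277 and 1409 CPM in those with neither Foxp3 nor Il10. Itgae, the CD103 integrin chain that binds epithelial E-cadherin, was at 167 and 174 CPM against 68.9 and 77.5 CPM (log2 ratio 1.26). Itgb8, which releases active TGF-beta, was at 265 and 137 CPM against 129 and 103 CPM (log2 ratio 0.87).

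Areg, the tissue repair ligand amphiregulin, was at 496 and 544 CPM against 339 and 305 CPM (log2 ratio 0.70), with 33.0% of the knockout UMIs in 1 nucleus. Capg and Klrg1 passed with log2 ratios of 1.04 and 0.71, and the Klrg1 call was lost in 7 of the alternatives. Il2ra, the high-affinity IL-2 receptor chain, did not pass at 309 and 275 CPM against 244 and 252 CPM. Nrp1 was at 53.4 and 63.4 CPM against 75.9 and 72.6 CPM and did not pass.

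The rule for named genes also brought forward genes outside the lists. Frmd5, which encodes a FERM domain protein, was at 1267 and 946 CPM in the members, 124 and 58.5 CPM in the nuclei with neither transcript and 1325 and 1093 CPM in the Foxp3-positive nuclei. The Foxp3-positive nuclei with an Il10 UMI held more, 2403 and 1660.0 CPM. The members had a log2 ratio of 2.21 to the other Cd3-positive nuclei (edgeR adjusted p = 6.27e-66). At 1000 UMIs per nucleus 31.8% and 25.0% of members held a Frmd5 UMI, against 4.22% and 2.94% of the nuclei with neither transcript and 31.1% and 28.3% of the Foxp3-positive nuclei. Unthinned, the shares were 36.0% and 28.8%, 5.53% and 3.70%, and 36.0% and 31.2%.

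Nt5e, the ecto-enzyme CD73 that makes extracellular adenosine, was at 824 and 766 CPM against 286 and 277 CPM (log2 ratio 1.53, edgeR adjusted p = 1.37e-28). Ccr2, the receptor for the chemokine CCL2, was at 234 and 222 CPM against 82.6 and 71.5 CPM (log2 ratio 1.58). The unconventional myosins Myo1d and Myo3b had log2 ratios of 2.15 and 1.70, and nebulin (Neb) one of 1.53. The sorting nexin Snx9, the peptidase gene Ky and the Ras and RAB5 effector Rin2 followed with 1.93, 1.76 and 1.65. DESeq2 called Nt5e and Ccr2 as well.

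Among the named genes that were lower, Atp8a2, a phospholipid flippase, was at 71.2 and 100.4 CPM against 187 and 324 CPM (log2 ratio -1.48). Trat1 and Tespa1, which take part in T cell receptor signalling, had log2 ratios of -1.24 and -0.88, the call for Tespa1 being lost in DESeq2. Gramd3, the potassium channel gene Kcnq5, Ms4a4b and the efflux pump gene Abcb1b had ratios of -1.39, -1.27, -1.11 and -1.10. Pde3b, a phosphodiesterase that breaks down cyclic AMP, was at 283 and 264 CPM against 593 and 610.4 CPM (log2 ratio -1.09). St8sia1, a sialyltransferase, had a ratio of -1.09, and its call was lost in DESeq2.

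Of 24 secreted mediators tested, 7 were higher and 6 were lower, against 2.32% and 1.46% of all genes. The 7 include the proposed markers Ccl20 and Matn2. Il2, the T cell growth factor, had 0 UMIs in the members against 45.4 and 41.2 CPM in the other nuclei. Over both libraries that is at least 9.39-fold lower, taking 3 counts over the members as the floor and treating UMIs as independent. Csf2 (GM-CSF), Il4 and Tnf were lower with log2 ratios of -2.63, -2.41 and -1.50, each from few UMIs (Tnf at 17.8 and 26.4 CPM against 60.4 and 58.3 CPM). Il22, which acts on the epithelium, was lower at 169 and 185 CPM against 267 and 434 CPM, a call lost in DESeq2.

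On the other side, Ccl20, the ligand of CCR6, had a log2 ratio of 3.55 but came from 3 and 2 nuclei, with 53.3% and 87.5% of its UMIs in 1 nucleus. Matn2, an extracellular matrix protein, was spread more widely, over 15 and 4 nuclei, at 42.3 and 21.1 CPM against 5.42 and 3.30 CPM (log2 ratio 2.90). Fgl2, a secreted product of Treg cells, was at 162 and 74.0 CPM against 75.1 and 58.8 CPM and lost its call in DESeq2. Of the 4 proposed markers, Ctla4 was thus common among the members, Havcr2 and Matn2 were sparse, and Ccl20 was counted in 5 of 270.

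Lists of other T cell lineages were mixed. Of 20 Th1 and cytotoxic genes 4 were higher and 1 was lower, and the higher ones included Gzmb, Gzma and Hopx. Il12rb2, the inducible IL-12 receptor chain of Th1 cells, was lower at 267 and 365 CPM against 474 and 683 CPM (log2 ratio -0.83, edgeR adjusted p = 1.35e-06), while Tbx21 and Ifng did not pass. Of 18 Th17 genes, Ccl20, Stat3 and Il21 were higher and Il22 was lower. Of 10 Tfh genes tested only Il21 passed, and of 7 Th2 genes Ccr4 and Areg were higher and Il4 was lower.

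Among 10 naive and recirculating genes, Tcf7, Lef1 and Satb1 were lower and Foxo1 was higher, with a median log2 ratio of -0.18. Tcf7, which encodes TCF-1, was at 46.7 and 58.1 CPM against 112 and 112 CPM (log2 ratio -1.12), and Foxo1 was at 1333 and 1147 CPM against 836 and 824 CPM. The calls for Tcf7, Lef1 and Satb1 were lost in DESeq2. Of 24 activation and immediate-early genes 5 were lower and 1, the phosphatase gene Dusp4, was higher, and their median log2 ratio of -0.01 equalled that of all genes. Jun, an AP-1 subunit, was at 383 and 449 CPM against 688 and 739 CPM (log2 ratio -0.76), and Nr4a2, Nr4a3, Fos and Fosb had ratios of -0.74, -0.39, -0.47 and -0.50. Cd69 did not pass, at 485 and 470.5 CPM against 465 and 484 CPM.

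Of the 12 gut homing and retention genes tested, 5 were higher and 0 were lower. Besides Ccr2 and Itgae they were Itga4, the alpha4 chain that pairs with beta7 for gut entry, at 688 and 766 CPM against 465 and 530.1 CPM, Ccr9, the small intestinal homing receptor, at 196 and 248 CPM against 112 and 157 CPM, and Rgs1. The Rgs1 call, with a log2 ratio of 0.33, was lost in 7 of the alternatives.

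**Figure D2:**
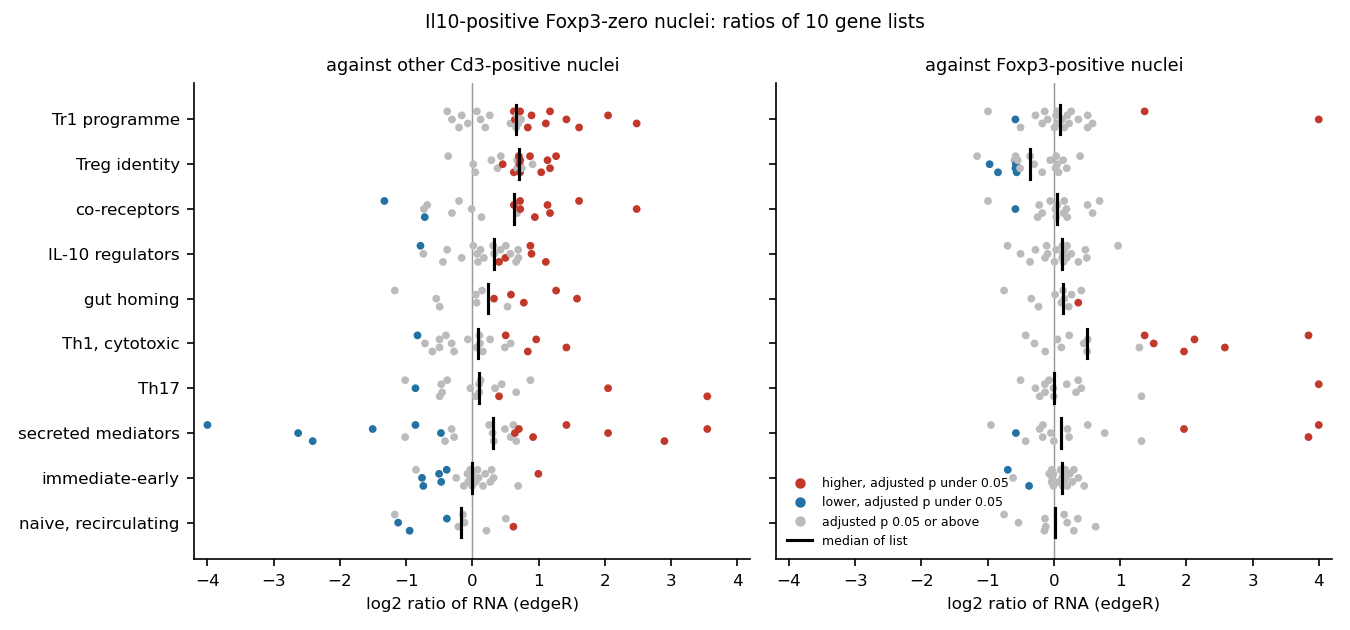
Log2 ratios from edgeR for each tested gene of 10 lists, in the members against the other Cd3-positive nuclei (left) and against the Foxp3-positive nuclei (right). Red points are higher and blue points lower at an adjusted p under 0.05, black bars are list medians, and ratios beyond 4 are drawn at 4. Against the other nuclei the Treg identity list has its median at 0.70 with 11 red points, and against the Foxp3-positive nuclei at -0.36 with 5 blue points.

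The Foxp3-positive nuclei were the closer reference. Of 4980 genes tested, 28 (0.562%) were higher in the members and 23 (0.462%) were lower by edgeR, 51 (1.02%) in all. DESeq2 called 3 (0.0602%), Ifng, Il12rb2 and Furin, all higher. Ctla4, Havcr2, Icos, Maf, Nfil3 and Frmd5 were not among the calls, and of 21 regulators of Il10 none passed in either direction. Of 22 Tr1 genes tested, 2 were higher, Il21 among them, and Tnfrsf9 was lower.

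Th1 genes set the members apart from the Foxp3-positive nuclei. Of 16 tested, 6 were higher and 0 were lower, with a median log2 ratio of 0.51 against 0.01 over all genes. Tbx21, the Th1 lineage factor T-bet, was at 69.0 and 68.7 CPM against 12.3 and 9.03 CPM in the Foxp3-positive nuclei (log2 ratio 2.58, edgeR adjusted p = 0.000586). Il12rb2 was at 267 and 365 CPM against 37.0 and 140.0 CPM (log2 ratio 2.12, edgeR adjusted p = 2.03e-13). Both genes thus lay between the Foxp3-positive level and that of the other Cd3-positive nuclei in each library.

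Ifng, the Th1 cytokine, was at 200.3 and 137 CPM against 15.9 and 4.52 CPM (log2 ratio 3.85, edgeR adjusted p = 6.98e-18). It came from 24 and 12 nuclei, and 46.7% and 46.2% of its UMIs lay in 1 nucleus of each library. The chemokine gene Ccl5 was at 385 and 233 CPM against 68.8 and 113 CPM, and the granule gene Nkg7 at 95.7 and 148 CPM against 45.9 and 27.1 CPM (log2 ratios 1.97 and 1.51). The other Cd3-positive nuclei held Ccl5 at 431 and 372 CPM, Nkg7 at 171 and 153 CPM and Ifng at 129 and 126 CPM. The members thus lay below them for Ccl5 and Nkg7 and above them for Ifng in both libraries. Xcl1, a chemokine of cytotoxic lymphocytes, passed with a ratio of 1.60 from 14 and 7 nuclei.

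Furin, the protease that processes TGF-beta, was at 772 and 1073 CPM against 293 and 406 CPM (log2 ratio 1.41, edgeR adjusted p = 1.21e-20). Pde3b, lower than in the other nuclei, was higher than in the Foxp3-positive ones at 283 and 264 CPM against 74.1 and 94.8 CPM. Mctp2 and the guanylate-binding protein gene Gbp8 had ratios of 3.23 and 1.38. Il21 had 0 UMIs in the Foxp3-positive nuclei. With a floor of 3 counts there, the members were 8.64-fold higher over both libraries if UMIs are taken as independent. They were not, since 64.3% and 57.1% of the members' Il21 UMIs lay in 1 nucleus, so this value is no lower bound.

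Treg genes of the tissue repair type were lower in the members. Il1rl1, the IL-33 receptor ST2, was at 381 and 285 CPM against 711 and 623 CPM (log2 ratio -0.97, edgeR adjusted p = 7.77e-08). Ikzf2, Tnfrsf9, Areg and Klrg1 completed the 5 of 21 Treg genes that were lower, with ratios of -0.56, -0.58, -0.57 and -0.84, and none was higher. Tox, a nuclear factor of chronically stimulated T cells, was at 3203 and 3150.5 CPM against 4167 and 5834 CPM (log2 ratio -0.61). The other named genes that were lower were Trf, Tmtc2, Pkp4, Kcnq5, Cd74, Ctla2a, Jun and Rgs2, from -1.16 for Trf to -0.62 for Rgs2.

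The Foxp3-positive nuclei with an Il10 UMI, 91 and 33 in number, were the narrowest reference. Against them 9 genes were higher and 2 lower, and 7 of the 9 were among the 28 above. Ifng, Il12rb2, Ccl5, Nkg7, Pde3b and Furin kept their calls, with log2 ratios of 3.14, 3.04, 3.44, 2.41, 2.02 and 1.37. The call for Tbx21 was lost at a ratio of 2.68, and so were those for Il1rl1, Ikzf2, Areg, Tnfrsf9 and Tox, at ratios of -0.36, -0.18, -0.65, -0.45 and -0.14. Between 2 groups that both held Il10 UMIs, the Th1 genes Ifng, Il12rb2, Ccl5 and Nkg7 were called. The Treg genes above were not, but their ratios stayed negative, as did that of Klrg1 at -0.68. With so few reference nuclei, a lost call does not show that a difference was gone.

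Without the nuclei that held an innate lymphoid UMI, a setting added after the data were seen, 6 genes were higher and 1 was lower than in the Foxp3-positive nuclei. Against the other Cd3-positive nuclei the same setting left 165 higher and 92 lower, of which 144 and 84 were among the original calls.

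Open chromatin was not used by the rule and gives an independent measure. Fragments were summed over 73219 regions covered by peaks from both libraries, and are given as fragments per 1000000 fragments in those regions (FPM). Against the other Cd3-positive nuclei 37 of 39167 regions tested (0.0945%) were more open in the members and 7 (0.0179%) were less open by edgeR, 44 (0.112%) in all. DESeq2 called 0 (337 at an unadjusted p under 0.05, against 3221 in edgeR), and with nuclei of 1000 to 3000 UMIs or with the deposited values in place of fragments no edgeR call remained either. The calls rest on few fragments, 17 of the 37 having fewer than 20 in the members.

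Around Il10, 16 shared regions lay within 50 kb and 14 were tested, of which 2 were more open and 0 less. The first, chr1:131000243-131001113, is intergenic, with its centre at position -19167 from the Il10 start. It held 31.8 and 24.4 FPM in the members, 10.6 and 8.28 in the other nuclei and 30.9 and 25.8 in the Foxp3-positive nuclei (log2 ratio 1.55 to the other nuclei, edgeR adjusted p = 0.0496). The second, chr1:131002913-131003810, lies at position -16484 and held 33.3 and 40.7 against 10.8 and 12.6 (log2 ratio 1.63, edgeR adjusted p = 0.00989). In both libraries these upstream regions were more open in the members than in the other nuclei. Neither was called against the Foxp3-positive nuclei, which held 18.003 and 30.5 in the second.

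The region over Il10 exons, chr1:131021224-131022091, did not differ by the test, at 30.3 and 16.3 against 21.1 and 18.9 (log2 ratio 0.29). Summed over the 16 regions, the members held 383 and 326 FPM against 229.9 and 215 in the other nuclei. That log2 ratio was 0.74 (0.54 to 0.93) in the control and 0.60 (0.31 to 0.88) in the knockout library, and against the Foxp3-positive nuclei it was 0.26 (0.01 to 0.52) and -0.19 (-0.55 to 0.16).

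Foxp3 RNA was absent from the members by rule, yet 1 of 15 tested regions at that locus was more open in them. It lies at chrX:7583699-7584600 in an intron of Foxp3, its centre 4473 bases after the RefSeq start. Intronic elements of Foxp3 are known for keeping the gene active in Treg cells, and the region was not matched to a named element here. The members held 34.8 and 27.2 FPM, from 23 and 10 fragments, against 9.58 and 9.43 in the other nuclei (log2 ratio 1.71, edgeR adjusted p = 0.0165). The nuclei with neither transcript held 5.31 and 5.93, and the Foxp3-positive nuclei 37.3 and 35.2. The members, though counted as Foxp3-zero, lay beside the Foxp3-positive nuclei in both libraries and apart from the rest.

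The region that holds the RefSeq start of Foxp3, chrX:7578948-7579955, was not called, at 12.1 and 2.72 FPM from 8 and 1 fragments against 6.56 and 2.57 in the other nuclei. A more open region further upstream, chrX:7574054-7574991, whose nearest annotated start is that of Ppp1r3f, was not called either, at 59.0 and 62.5 against 54.8 and 55.4. At the same locus the summed level of all 17 regions was 271 and 212 in the members against 189 and 177 in the other nuclei. The label of these nuclei as Foxp3-negative thus describes their RNA counts, and they are named by the rule throughout.

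**Figure D3:**
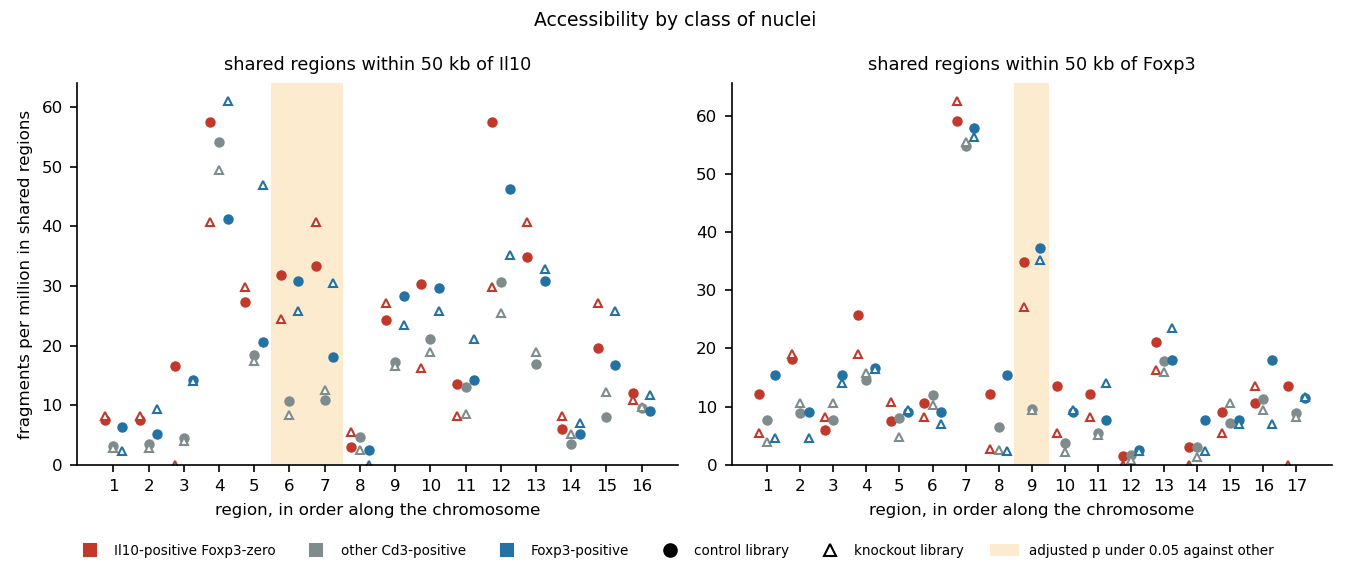
Fragments per 1000000 (FPM) in shared regions within 50 kb of Il10 (left) and Foxp3 (right), regions numbered along the chromosome, with red for the members, grey for the other Cd3-positive nuclei and blue for the Foxp3-positive nuclei. Shaded regions passed edgeR's test against the other nuclei. In the shaded Foxp3 region the members at 34.8 and 27.2 and the Foxp3-positive nuclei at 37.3 and 35.2 lie above the other nuclei at 9.58 and 9.43.

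At the other loci examined, Ctla4, Havcr2, Ccl20, Matn2, Maf, Prdm1, Ikzf2 and Lag3, no region passed. Over all 10 loci, which include Il10 and Foxp3 of the rule, 86 of 119 tested regions had a positive log2 ratio and 3 were called. The median log2 ratio over all 39167 regions tested was -0.02. The region over the Havcr2 promoter printed above, chr11:46454245-46455293, was at 13.6 and 24.4 in the members against 16.7 and 17.1 (log2 ratio 0.04), although Havcr2 RNA was higher. The region over the Ctla4 promoter, chr1:60908556-60909477, was at 15.1 and 21.7 against 25.5 and 22.3 (log2 ratio -0.49, edgeR adjusted p = 0.768). The 31 regions around Ctla4 together were nevertheless more open, with log2 ratios of 0.56 (0.38 to 0.73) and 0.53 (0.27 to 0.78).

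Of the 44 called regions, 1 lay at a start site, 17 in introns, 10 over exons and 16 between genes. The start site was that of Il23r, the IL-23 receptor gene (chr6:67491418-67492515), at 13.6 and 27.2 against 3.903 and 5.71 from 19 fragments (log2 ratio 1.99). Its RNA did not differ by the test, at 214 and 233 CPM against 207 and 215 CPM. A region at position -2607 from the Tnfrsf9 start (chr4:150917090-150918006) was at 39.3 and 48.9 against 19.7 and 14.9 (log2 ratio 1.24, edgeR adjusted p = 0.0228), and Tnfrsf9 RNA was higher in the members too. An intronic Wwox region whose nearest other start is that of Maf, 589347 bases away (chr8:115117285-115118214), was at 15.1 and 19.0 against 2.84 and 1.43 (log2 ratio 2.79). Regions of at least 50 member fragments were at Magi2, Cc2d2a, Wwox and Poli, with log2 ratios of 0.94, 1.05, 1.28 and 1.23.

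Against the Foxp3-positive nuclei edgeR called 0 of 15705 regions tested, a background of 0%, with 631 at an unadjusted p under 0.05, and DESeq2 called 0 with 1 at that level. The Th1 and Treg genes that separated these classes in RNA had no counterpart among the regions called at this depth of 660839 and 368169 member fragments.

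The members varied among themselves. They were split by whether a nucleus held a UMI of the Th1 genes Ifng, Il12rb2, Ccl5, Nkg7 or Tbx21, a split chosen after the values were seen and given without a test. The regions counted were the called ones above, so the members' own shares restate that comparison. Such a UMI was found in 57 of 197 control members (28.9%) and 25 of 73 knockout members (34.2%). Their median depth was 2302 and 3072 UMIs against 2055.5 and 2480 in the rest of the members. Nuclei with neither Foxp3 nor Il10 held such a UMI more often, in 799 of 1538 control and 401 of 703 knockout nuclei. A fragment in the Foxp3 intronic region was found in 3.51% and 8.0% of the members with a Th1 UMI and in 12.1% and 14.6% of those without. The intervals were wide and overlapped, at 0.428 to 12.1% against 7.24 to 18.7% in the control library and 0.984 to 26.0% against 6.07 to 27.8% in the knockout library. In nuclei with a Th1 UMI but neither Foxp3 nor Il10 the share was 0.501% and 0.998%, with intervals (0.137 to 1.28% and 0.272 to 2.53%) that overlapped those of the members with a Th1 UMI.

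Members without a Th1 UMI held more Havcr2, Frmd5 and Nt5e than those with one. Havcr2 was at 199 and 198 CPM in them and at 65.5 and 59.1 CPM in those with one. Frmd5 was at 1578 and 1251 CPM against 560.0 and 399 CPM, and Nt5e at 982 and 988 CPM against 465 and 369 CPM. Gzmb ran the opposite way, at 561 and 156 CPM against 807 and 989 CPM. In the knockout library this came from 19 UMIs against 67. The single knockout nucleus described above as rich in Gzmb was thus among those with a Th1 UMI and held much of their count. Maf differed in direction between the libraries, at 1142 and 1334 CPM against 1222 and 901 CPM.

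A further split by Helios was also chosen after the values were seen and was not tested. An Ikzf2 UMI was found in 120 control and 49 knockout members (60.9% and 67.1%). The shares were 51.1% and 53.5% in nuclei without a Foxp3 or Il10 UMI and 77.3% and 78.1% in the Foxp3-positive nuclei. The members with neither an Ikzf2 nor a Th1 UMI numbered 53 and 20. Il10 was at 2204 and 3018 CPM in the nuclei with neither and at 1792 and 1491 CPM in those with Ikzf2 only. Ctla4 was at 3728 and 4465 CPM against 3167 and 2846 CPM, and Icos at 2058 and 2150.0 CPM against 1155 and 1204 CPM. Nuclei with Ikzf2 only held more Tnfrsf9, at 1945 and 2832 CPM against 699 and 455 CPM, and more Tox and Il1rl1, the latter at 699 and 602 CPM against 58.3 and 0 CPM. Members with both an Ikzf2 and a Th1 UMI (33 and 21) held less of Tnfrsf9 and Il1rl1 than those with Ikzf2 only, with Tnfrsf9 at 923 and 991 CPM and Il1rl1 at 228 and 171 CPM. The members with neither carried the most Il10, Ctla4 and Icos of these subsets in both libraries. Their median depth was 1999 and 2346 UMIs, against 2156 and 2694.5 with Ikzf2 only and 2448 and 3155 with both. It was 1963 and 2131.5 with a Th1 UMI only. Il10 is a gene of the rule, and the part of depth in these levels was not tested.

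Members with 2 or more Il10 UMIs, 125 and 46 in number, were set beside those with 1, again with no test. Ctla4 was at 3723 and 3776 CPM against 2036 and 2225 CPM, and Frmd5 at 1661 and 1160.5 CPM against 622 and 610.5 CPM. Il12rb2 was at 222 and 208 CPM against 340.3 and 610.5 CPM. Ifng and Ccl5 differed in direction between the libraries. Ifng was at 258 and 52.0 CPM against 106 and 271 CPM, and Ccl5 at 115 and 286 CPM against 827 and 149 CPM. The Ifng values came from 72 and 6 UMIs against 18 and 20. The control nucleus described above as rich in Ifng was among those behind the 72 UMIs. Its knockout counterpart was among those behind the 20 UMIs. Each held much of its subset's count, and the part of these single nuclei in the opposite directions was not tested. A fragment in the 2 upstream Il10 regions was found in 20.8% and 30.4% of the members with 2 or more Il10 UMIs. The shares were 8.33% and 18.5% of the members with 1 UMI and 4.62% and 6.40% of the nuclei with neither transcript. The intervals of the subsets with 2 or more and with 1 Il10 UMI overlapped, at 14.1 to 29.0% against 3.12 to 17.3% in the control and 17.7 to 45.8% against 6.30 to 38.1% in the knockout members.

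**Figure D4:**
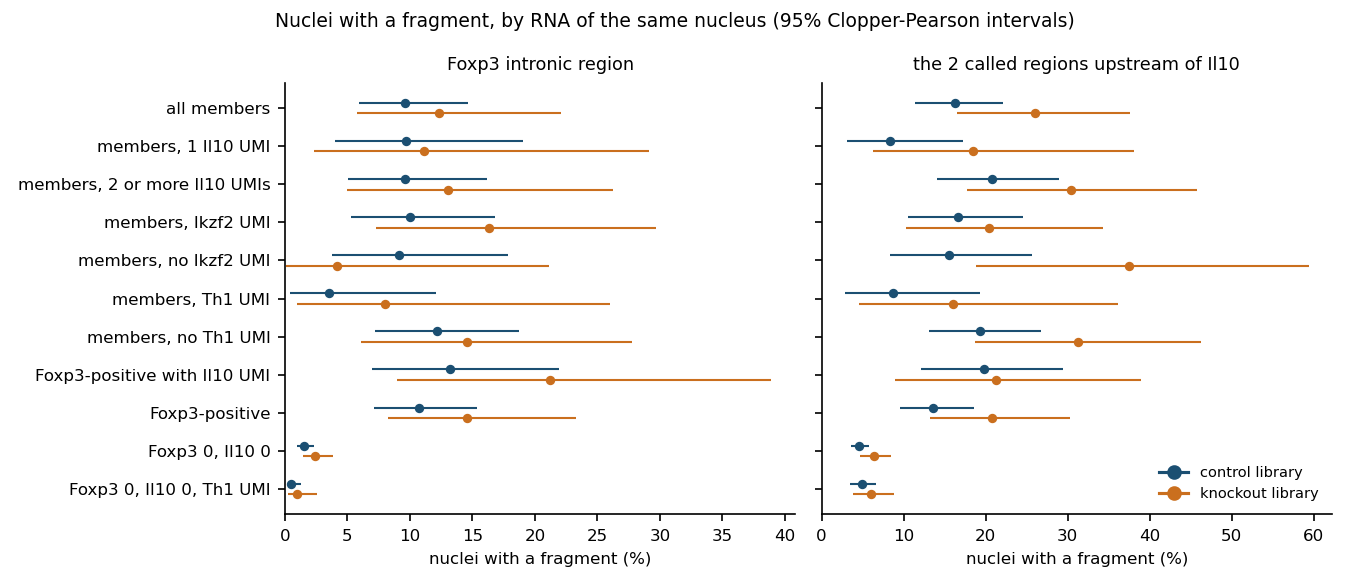
Share of nuclei with a fragment in the Foxp3 intronic region (left) and in the 2 called regions upstream of Il10 (right), by the RNA of the same nucleus, with 95% Clopper-Pearson intervals for each library. All members lie at 9.64% and 12.3% on the left and at 16.2% and 26.0% on the right, and nuclei with neither Foxp3 nor Il10 at 1.56% and 2.42% and at 4.62% and 6.40%.

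Between genotypes the members can be described but not tested, since each genotype has 1 library. Of 4629 genes with at least 20 UMIs over both libraries, 116 (2.51%) were at least 2-fold higher in the knockout members and 261 (5.64%) at least 2-fold lower. With nuclei thinned to 1000 UMIs these counts were 83 and 118. Of 2450 genes with at least 50 UMIs, 303 had a counting interval that left out 0, 162 of them higher in the knockout. Differences between libraries and between genotypes cannot be told apart.

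Il10 had a log2 ratio of knockout to control of 0.06 (-0.12 to 0.25), Ctla4 of 0.04 (-0.10 to 0.18), Maf of 0.02 (-0.22 to 0.24) and Icos of 0.00 (-0.21 to 0.22). Each of these intervals held 0. Ikzf2 was higher in the knockout members at 0.42 (0.25 to 0.58), and so were Tnfrsf9 at 0.27 (0.06 to 0.47) and Rora at 0.45 (0.29 to 0.60). The first 2 were also higher in the knockout library outside the members, Tnfrsf9 at 781 and 964 CPM in the other nuclei and 1877 and 2371 CPM in the Foxp3-positive nuclei, and Ikzf2 at 1455 and 1661 CPM and 2722 and 3558 CPM. Lower were Gzmb at -0.48 (-0.85 to -0.13), Itgb8 at -0.93 (-1.62 to -0.33), Ccl5 at -0.72 (-1.24 to -0.24) and Fgl2 at -1.09 (-2.08 to -0.30).

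Cd4 had the largest ratio among the genes named by rule. It was at 254 CPM in the control members and 809 CPM in the knockout members, a log2 ratio of 1.67 (1.31 to 2.03). The other Cd3-positive nuclei showed nearly the same, at 1.55 (1.44 to 1.67), so it was seen outside the members too. An intronic region of Cd4 (chr6:124884880-124885797) held 22.7 and 152 FPM in the members and 36.7 and 202 in the other nuclei. Only the knockout mice carry the CD4cre transgene, and its part in these Cd4 values was not tested. Slc15a2, a peptide transporter gene, followed at 1.63 (1.09 to 2.18) and at 1.11 (0.92 to 1.31) in the other nuclei.

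The other named genes were chosen for their ratios in the members, so that smaller ratios in the other nuclei follow in part from the choice. Hk2, the hexokinase of induced glycolysis, was at 84.6 CPM in the control and 259 CPM in the knockout members, a log2 ratio of 1.61 (0.97 to 2.27), against 0.35 (0.19 to 0.51) in the other nuclei. Ncapd3, a condensin subunit, and Hat1, a histone acetyltransferase, both had ratios of 1.41 in the members, against 0.35 and 0.05. The lowest were Limd2 at -2.12 (-4.21 to -0.82), the respiratory chain genes Atp5o at -1.92 and Cox5a at -1.82, Lclat1 at -1.66 and Kansl1l at -1.66. Kansl1l went the other way in the other nuclei, at 0.35 (0.16 to 0.54). The knockout counts behind these 5 genes were 4 to 12 UMIs, and the differences between the classes were not tested.

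**Figure D5:**
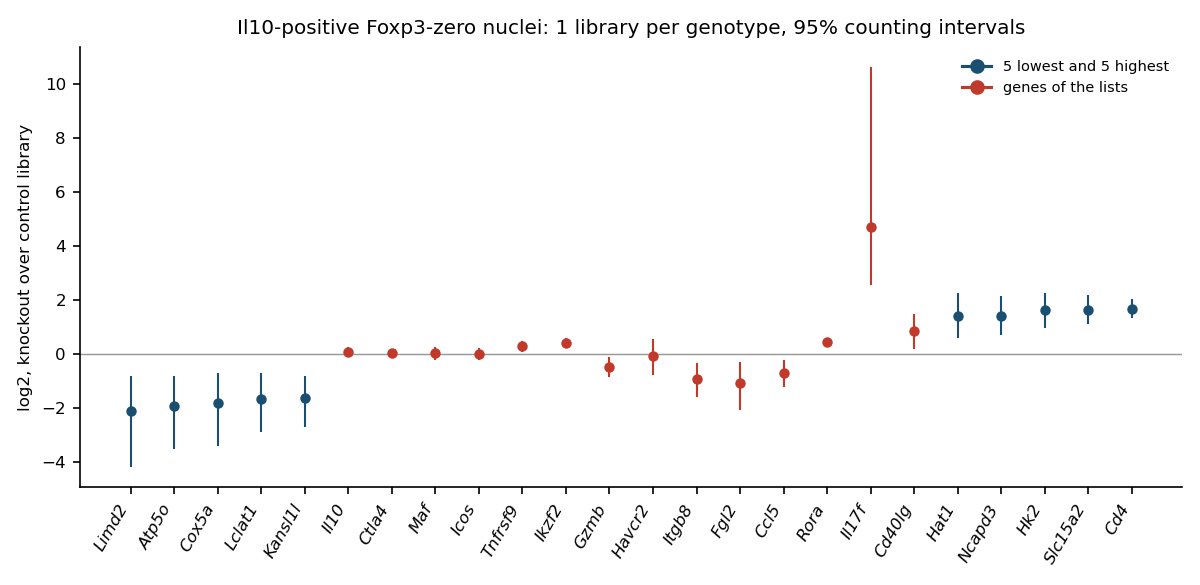
Log2 ratio of the knockout to the control library within the members, with 95% counting intervals and 1 library per genotype. Blue points are the 5 lowest and 5 highest genes named by rule, from Limd2 at -2.12 to Cd4 at 1.67, and red points are genes of the lists, among which Il10, Ctla4, Maf and Icos have intervals that hold 0.

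Il17f was the most uneven of the listed genes, with 1 UMI in the control members and 16 in the knockout members, the latter in 4 nuclei. Pdcd1 was lower in the knockout members at -1.38 (-2.86 to -0.31), from 46 and 7 UMIs. Irf1, an interferon-induced factor that can drive Tr1 differentiation, was at 269 and 159 CPM, a log2 ratio of -0.75 (-1.39 to -0.18).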

How the data were processed

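The files analysed were the filtered count matrices of 2 10x Multiome libraries, with whole-number gene UMI counts and peak counts per nucleus as deposited by the authors. Cell Ranger ARC 2.0.1 and mm10 are named in the submitters' processing notes. Peaks had been called per library (83851 and 85738), per the deposited files. Of the peak counts 91.7% and 90.7% were even, so fragments were taken as the count divided by 2, rounded up, and summed over 73219 regions in which peaks of both libraries overlapped by at least 1 base. Annotation was GENCODE vM21 (GRCm38), and promoters came from RefSeq (GRCm38.p6).

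UMIs and fragments were summed per class and library. The 4 sums of a comparison were tested with edgeR 4.0.16 (R 4.3.3; quasi-likelihood test, TMM scaling, filterByExpr, Benjamini-Hochberg adjustment, threshold 0.05) with the library as a block, since both classes come from the same library. DESeq2 1.42.0 was an alternative, beside other scaling, filters, depth windows, thinning to 1000 UMIs and other references. Genotypes had 1 library each and were not tested. Exact conditional intervals describe ratios within a library and Clopper-Pearson intervals shares. On simulated counts with 200 changed genes the test against the other nuclei recovered 29% at 2-fold and 88.5% at 4-fold. It made 0 and 16 false calls. Against the Foxp3-positive nuclei 30.5% and 78% of the changed genes were recovered. Of changed regions, 17% and 93.5% were recovered against the other nuclei and 18% and 82.5% against the Foxp3-positive nuclei. The simulation drew sums and not nuclei, so it did not cover genes with many UMIs in 1 nucleus. Nuclei were not checked for doublets by a caller, and the limit of 4000 UMIs left out the deepest.

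Genes were named as the 10 highest and 10 lowest ratios among calls with at least 50 member UMIs and the same sign in both libraries, leaving out the rule's genes and mitochondrial, ribosomal, antigen receptor, predicted and sex-linked marker genes. Members of gene lists could be named with their values. Between genotypes the 5 highest and 5 lowest were named by a like rule. The members, lists and tests were chosen with earlier results of these data known. Motifs had been planned for peak regions and were searched in RefSeq promoters instead. Which exons were deleted is not given in the sources used here.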

Additional observations from a re-analysis of the deposited data

Results flagged for a closer look

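Several listed genes had ratios of opposite sign in the control and knockout libraries, and the differences between libraries were not tested. Il17f, an effector cytokine gene of Th17 cells, had a log2 ratio of members to other Cd3-positive nuclei of -2.56 for the control and 2.43 for the knockout, from 1 and 16 member UMIs. Irf1 had ratios of 0.47 and -0.72 to the other nuclei and of 0.38 and -1.06 to the Foxp3-positive nuclei. Rora, a nuclear receptor gene of Th17 and tissue Treg cells, had ratios of -0.14 and 0.19 to the other nuclei and of -0.46 and 0.23 to the Foxp3-positive nuclei. Tnfsf8, which encodes CD30 ligand, had ratios of 0.61 and -0.47 to the Foxp3-positive nuclei.

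Above the depth limit of 4000 UMIs, 71 control and 85 knockout nuclei met the other conditions of the rule and were not used. They were found among 439 and 502 Cd3-positive nuclei of that depth.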

How the results depend on the processing

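Against the other Cd3-positive nuclei, the 195 higher and 123 lower genes became 59 and 21 with DESeq2, 81 and 32 with no replicate block, and 81 and 40 with nuclei thinned to 1000 UMIs, while 103 were higher with no filter on low counts and 114 with nuclei of 1000 to 3000 UMIs. Against the Foxp3-positive nuclei, the 28 higher and 23 lower became 3 and 0 with DESeq2 (40 at an unadjusted p under 0.05), 8 and 0 with no replicate block, 9 and 12 with at least 2 Il10 UMIs, 4 and 2 in the 1000 to 3000 window, 10 and 9 when thinned, 6 and 1 without nuclei holding innate lymphoid UMIs (chosen after seeing the data), and 9 and 2 against those with an Il10 UMI. In that last setting the log2 ratio changed sign for Pkp4 (0.26), Cd74 (0.36), Rgs2 (0.14), Havcr2 (-0.21) and Ctla4 (-0.47). The 37 more open and 7 less open regions became 0 and 0 with DESeq2, the 1000 to 3000 window or the deposited values, 5 and 0 with no filter, and 2 and 0 with no replicate block; 14 were more open with at least 2 Il10 UMIs and 1 less open against nuclei with neither transcript. At least 2 Il10 UMIs gave member shares of 6.16% and 5.22%. Between genotypes, 19 higher and 50 lower genes remained past 2-fold at a minimum of 50 UMIs, and 83 were higher and 118 lower when thinned. With no filter the median log2 ratio of all genes against the other nuclei moved from -0.01 to -0.34, and of all regions from -0.02 to -0.16. The cause was not tested in any of these. The block is the library, which both classes share. Leaving out a library left values with no test.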
